A study of Homo sapiens with 2 samples.

Results

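Of 44771 peaks in an APC chromatin immunoprecipitation (ChIP-seq) peak list, 10711 (23.9%, 95% Wilson interval 23.5 to 24.3) had their centre in an AluS element. They were taken as the rows whose detailed annotation named a repeat of the class SINE with a name beginning in AluS. All 10711 carried the family name Alu, and their names fell into 17 subfamilies. AluS-centred peaks covered 13.8 of the 78.5 Mb under peaks, or 17.6%.

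Alu elements are short interspersed elements (SINEs) found only in primates. They descend from the RNA of the signal recognition particle, are transcribed by RNA polymerase III and are copied by the enzymes of LINE-1 elements. AluJ is the oldest branch, AluS arose after it and supplies most human copies, and AluY is the youngest. Alu copies are dense in gene-rich DNA and in introns, and they resemble one another so closely that short reads can match many of them.

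The antibody was a polyclonal one against the C-terminal end of APC, the tumour suppressor that scaffolds the destruction complex of β-catenin in the WNT pathway. The cells were HCT-116, an established colon carcinoma line, with the genotype APC wild-type, CTNNB1{delta}Ser45, in which β-catenin resists degradation. The series comprised 1 anti-APC library and 1 input library, both from HCT-116 chromatin that had been pre-cleared with rabbit IgG, and no immunoprecipitation with a control antibody. With 1 library per group there was no replicate and no test between conditions, read counts were not given, and the depth is unknown. Intervals below are 95% intervals over peaks and cover counting error only; peaks are not replicates, and neighbouring peaks are not independent.

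Whether these repeats were recovered more often than their share of the genome was not analysed here, because that needs a repeat map of hg19, the build of the peaks. The sources used here do not give how reads matching several places were handled. The list has no measure of peak height, and its score column equals the peak length, so lengths and positions are the measurements described.

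AluS-centred peaks carried no promoter label, but 147 were long enough to span the transcription start site (TSS) of their named gene. The promoters of the 4 protein-coding genes whose start lay nearest to the centre of such a peak, TMCC2, COQ5, POLE2 and PTGR2, are shown as the gene starts these peaks reach. Each line gives the 250 bases upstream of the start in RefSeq, on build GRCh38.p14 and in the direction of transcription. Capitals mark a CCAAT box (CCAAT) or a GC box (GGGCGGG), searched on both strands, so that ATTGG and CCCGCCC are the same boxes read from the other strand. The RefSeq start may differ from the start used in the peak list.
TMCC2, chr1:205227696-205227945, plus strand: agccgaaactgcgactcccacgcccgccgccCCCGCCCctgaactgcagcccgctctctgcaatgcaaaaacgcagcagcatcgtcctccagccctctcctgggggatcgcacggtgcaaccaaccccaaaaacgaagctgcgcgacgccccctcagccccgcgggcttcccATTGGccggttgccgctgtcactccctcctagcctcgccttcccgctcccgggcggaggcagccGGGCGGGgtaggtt
COQ5, chr12:120529159-120529408, minus strand: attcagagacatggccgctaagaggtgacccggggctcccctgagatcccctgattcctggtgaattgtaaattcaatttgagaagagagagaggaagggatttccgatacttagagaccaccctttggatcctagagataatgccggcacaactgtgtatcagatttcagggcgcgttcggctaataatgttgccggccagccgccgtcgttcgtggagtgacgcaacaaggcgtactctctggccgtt
POLE2, chr14:49688215-49688464, minus strand: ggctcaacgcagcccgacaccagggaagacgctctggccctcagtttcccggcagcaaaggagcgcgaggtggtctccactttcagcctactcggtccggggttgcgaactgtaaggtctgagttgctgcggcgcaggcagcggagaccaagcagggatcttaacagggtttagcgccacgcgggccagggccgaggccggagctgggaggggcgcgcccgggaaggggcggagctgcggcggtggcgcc
PTGR2, chr14:73851697-73851946, plus strand: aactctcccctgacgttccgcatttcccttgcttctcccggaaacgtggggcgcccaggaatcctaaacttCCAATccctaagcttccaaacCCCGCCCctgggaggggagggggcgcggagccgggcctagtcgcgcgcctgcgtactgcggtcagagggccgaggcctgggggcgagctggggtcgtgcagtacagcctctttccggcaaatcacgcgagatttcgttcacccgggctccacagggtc
The TMCC2 window held 3 box matches and the PTGR2 window 2. No match in the COQ5 and POLE2 windows says only that these letters are not in those windows. The AluS copies themselves are not printed, as their sequence needs the genome of the peaks' build.

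The peaks at these 4 starts were centred in the first intron of the gene. TMCC2, which encodes a transmembrane coiled-coil protein, had the AluS-centred peak closest to any TSS, centred 319 bp downstream in intron 1 of 4. It was 2246 bp long (hg19, chromosome 1, 205197256 to 205199500), lay in an AluSx1 copy, and had another peak 77 bp away. COQ5, a methyltransferase of coenzyme Q synthesis, had a 2456-bp peak in an AluSq2 copy 375 bp downstream (chromosome 12, 120965362 to 120967816). POLE2, a subunit of DNA polymerase epsilon, had a 1650-bp peak in an AluSc copy 421 bp downstream (chromosome 14, 50153853 to 50155501). PTGR2, a prostaglandin reductase, had a 2756-bp peak in an AluSc8 copy 501 bp downstream (chromosome 14, 74317745 to 74320499).

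The remaining 6 of the 10 AluS-centred peaks nearest a TSS were centred 402 to 551 bp downstream of it. They were named for LOC101926926, the pseudogene MSL3P1, HIGD1B, ZDHHC4 (a palmitoyltransferase), ETFDH (an electron-transfer flavoprotein dehydrogenase) and DNAH12 (an axonemal dynein). Their lengths were 1844 bp at LOC101926926, 1420 bp at MSL3P1, 1432 bp at HIGD1B, 2598 bp at ZDHHC4, 962 bp at ETFDH and 1320 bp at DNAH12. Of the 10, only the ETFDH peak was too short to reach the start.

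Spanning a TSS was rare for AluS-centred peaks. The share was 1.37% (147 peaks, interval 1.17 to 1.61), against 0.681% of AluY-centred, 1.55% of AluJ-centred and 7.37% of the other intronic and intergenic peaks. The AluS share lay below that of the other intronic and intergenic peaks (AluS minus other -5.99 points, 95% Newcombe interval -6.38 to -5.60). Among those others it was 12.8% for peaks with no repeat. For LINE-centred peaks it was 1.85% and for long terminal repeat (LTR)-centred peaks 1.13%, so rare spanning was not particular to AluS. These shares were not compared within classes of like length. Of the 147 peaks, 91 were intronic, 72 of them in a first intron, 56 were intergenic, and 126 were named for protein-coding genes. Their median length was 4481 bp (interval 4110 to 4918), with a range of 1320 to 34989 bp. By construction a peak spans a start only if its length exceeds 2 times the distance of its centre.

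The upstream windows of the spanned genes were searched for 5 motifs on both strands. A peak counts as spanning a start however little it passes it, so a window need not lie wholly under its peak. RefSeq promoters were matched for 97 of 124 protein-coding genes spanned, and the comparison was 15843 protein-coding promoters of the same length. The GC box (GGGCGGG) was in 53 of 97 windows (54.6%, interval 44.7 to 64.2), against 42.9% of all windows, a share just below that interval. It was 1 of 5 motifs searched. The windows were not matched for base content or chromosome, and the source of this difference was not tested. The CCAAT box was in 33 (34.0%, interval 25.4 to 43.9), against 34.5%. The AP-1 site TGANTCA, the motif of JUN and FOS dimers, was in 1 window (1.03%, interval 0.182 to 5.61). Of all windows 5.04% held it, a share inside that interval. The core of the TCF/LEF motif, CTTTGAT, which DNA-binding partners of β-catenin recognise, was in 0 of 97 windows, against 1.73% of all, and 0 of 97 leaves a Wilson interval of up to 3.81%. The core of the Alu B box, GTTCNAGAC, part of the RNA polymerase III promoter inside the element, was in 0 of 97, against 0.341%. These letters describe the windows, not binding sites.

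The subfamilies followed a steep order of abundance. AluSx held 1990 peaks (18.6%, interval 17.9 to 19.3), AluSx1 1687, AluSz 1448, AluSp 917, AluSq2 893, AluSg 806, AluSc 617 and AluSz6 580. AluSx3 held 479, AluSc8 410, AluSq 354, AluSg4 152, AluSg7 142, AluSc5 99, AluSx4 79, AluSq10 34 and AluSq4 24. Grouped by the letter after AluS, the x group held 4235 peaks (39.5%), z 2028, q 1305, c 1126, g 1100 and p 917. Subfamilies are told apart by a few diagnostic bases, and without a count of their genomic copies this order says nothing about preference.

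**Figure D1:**
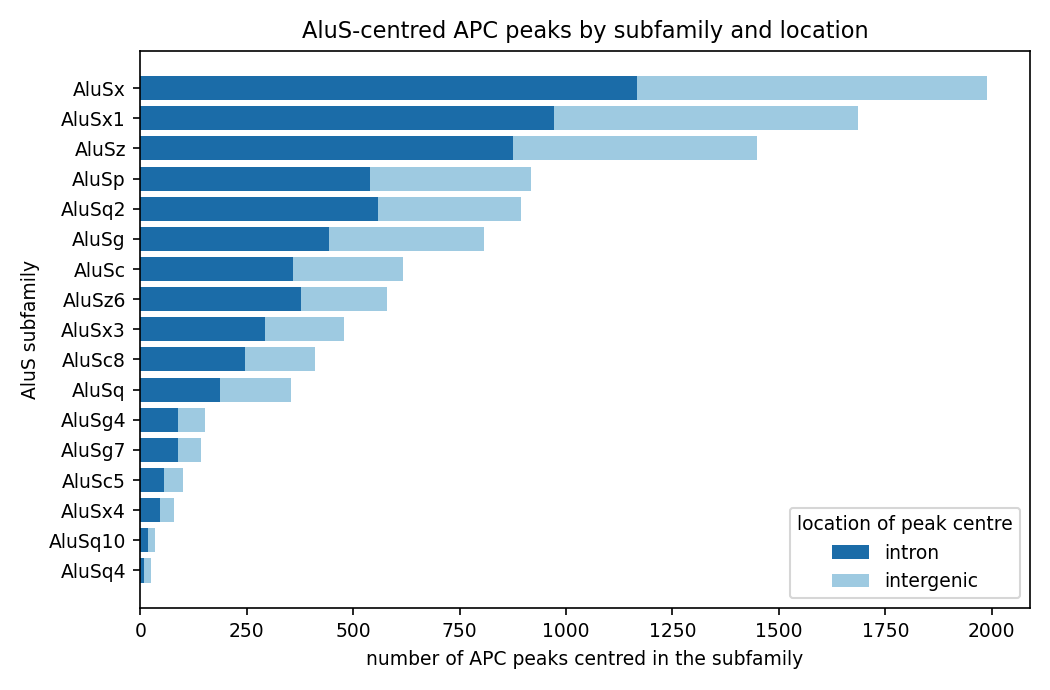
Number of APC peaks centred in each of the 17 AluS subfamilies (horizontal axis, peaks), with the intronic part of each bar first and the intergenic part after it. AluSx leads with 1990 peaks, of which 1167 were intronic, and AluSq4 is last with 24.

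Intronic peaks outnumbered intergenic ones in all of the 13 subfamilies with 100 or more peaks. AluSz6 had the highest intronic share, 65.2% (378 of 580, interval 61.2 to 68.9), and AluSq the lowest, 52.8% (187 of 354, interval 47.6 to 58.0). These 2 intervals do not overlap, but they are the extremes of 13. AluSx (1167 intronic, 823 intergenic), AluSx1 (971 and 716), AluSz (876 and 572), AluSp (540 and 377), AluSq2 (558 and 335), AluSg (442 and 364) and AluSc (359 and 258) lay between them. AluSq4, with 8 intronic and 16 intergenic peaks, had more intergenic ones.

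Among all AluS-centred peaks 6315 were intronic (59.0%, interval 58.0 to 59.9) and 4396 intergenic. The list gives repeat names only to peaks it places in introns or between genes, so none could be exonic. The intronic share was 6.31 points above that of AluY-centred peaks (59.0% against 52.7%, interval 4.39 to 8.23) and below that of AluJ-centred peaks (62.0%; AluS minus AluJ -3.08 points, -5.17 to -0.949). It was 4.49 points above that of the other intronic and intergenic peaks (54.5%, interval 3.38 to 5.60). Those others were mixed. Peaks with no repeat had an intronic share of 58.6% (interval 57.7 to 59.4), close to that of AluS. The share was 49.3% for LINE-centred and 32.8% for LTR-centred peaks. Among peaks no shorter than 1350 bp, the median of the whole list, the AluS minus AluY difference was 1.25 points (-2.98 to 5.51) and the AluS minus AluJ difference -2.82 points (-6.39 to 0.799), and both intervals included 0.

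Looked at from the introns, AluS elements sat at the centre of 31.0% of 20403 intronic peaks (interval 30.3 to 31.6) and of 27.2% of 16173 intergenic peaks (interval 26.5 to 27.9). They accounted for 64.5% of the 16606 Alu-centred peaks (interval 63.8 to 65.2) and 61.7% of the 17346 SINE-centred peaks. AluY-centred peaks numbered 3377 and AluJ-centred peaks 2518.

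AluS-centred peaks were short, and many had nearly the same length. Their median length was 872 bp (interval 858 to 884), with quartiles of 638 and 1452 bp, against 788 bp (768 to 802) for AluY-centred, 1087 bp (1038 to 1133) for AluJ-centred and 1613.5 bp (1592 to 1634) for intronic or intergenic peaks with no repeat. The intervals of the 4 medians do not overlap. Intronic AluS-centred peaks had a median of 865 bp and intergenic ones 883 bp.

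The fullest 50-bp bin of AluS-centred peaks was 600 to 649 bp, with 1440 peaks or 13.4% of them. AluY-centred peaks had their fullest bin at the same length (541 peaks, 16.0%), and AluJ-centred peaks at 550 to 599 bp (268 peaks, 10.6%). Peaks with no repeat had a flat maximum at 950 to 999 bp that held 3.49% of them. Beyond the main bin AluS-centred peaks fell to 454 at 700 to 749 bp and rose again to 516 at 800 to 849 bp. They dropped to 177 at 1000 to 1049 bp and numbered 244 at 1250 to 1299 bp.

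**Figure D2:**
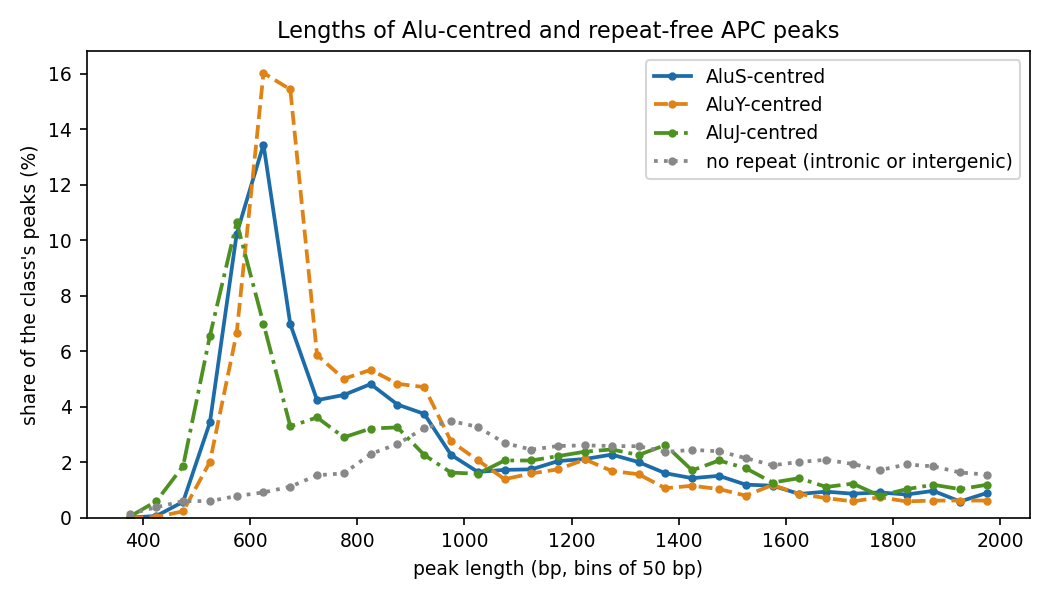
Share of each class's peaks (vertical axis, %) in 50-bp bins of peak length (horizontal axis, bp) for peaks centred in AluS, AluY and AluJ and for intronic or intergenic peaks with no repeat. The AluS curve has its maximum of 13.4% at 600 to 649 bp, where the repeat-free curve stands at 0.916%.

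Between 550 and 699 bp lay 3283 AluS-centred peaks (30.7%, interval 29.8 to 31.5). AluY-centred peaks had 38.1% and AluJ-centred peaks 20.9% of their number in this window. The AluS share was below the AluY share (AluS minus AluY -7.46 points, -9.32 to -5.61), 9.72 points above the AluJ share (7.87 to 11.5) and 20.9 points above that of the other intronic and intergenic peaks (20.0 to 21.8). This 550 to 699 bp window was set after the length distribution had been seen. Among the 13 larger subfamilies the share ran from 22.4% in AluSg4 to 38.3% in AluSc8, and the median length from 999 bp in AluSg4 to 794 bp in AluSc8.

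Sorting all intronic and intergenic peaks by length showed where AluS elements were common. Among peaks of 600 to 699 bp, 54.3% were centred in AluS (2187 of 4024, interval 52.8 to 55.9), 26.4% in AluY and 6.44% in AluJ. Below 600 bp the AluS share was 52.0%, at 700 to 999 bp it was 34.7%, and at 1000 to 1499 bp it was 22.4%. It was 19.3% at 1500 to 2499 bp, 16.8% (interval 15.8 to 18.0) at 2500 to 4999 bp and 19.3% (interval 17.0 to 21.8) at 5000 bp or more. The AluJ share differed from this shape: 16.8% below 600 bp, and 5.70% to 6.44% in all longer classes.

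**Figure D3:**
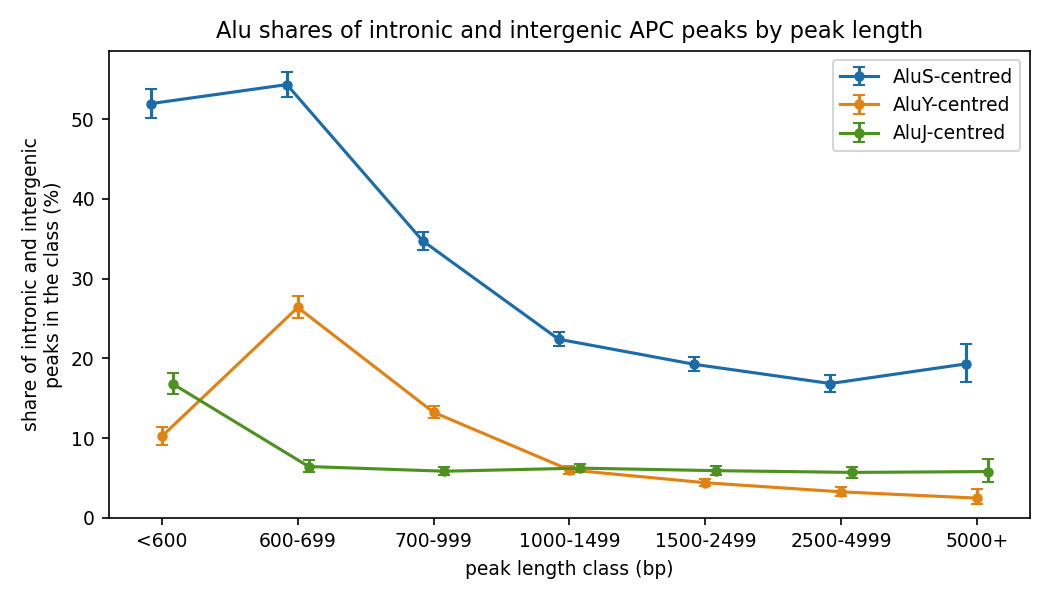
Share of intronic and intergenic peaks centred in AluS, AluY and AluJ (vertical axis, %, with 95% Wilson intervals) in 7 classes of peak length (horizontal axis, bp). AluS elements hold over 50% of peaks below 700 bp and under 20% of peaks of 1500 bp or more.

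A long peak is centred in an AluS copy with little meaning for the copy, since the rest of the peak lies elsewhere. At 2000 bp or more there were 1535 AluS-centred peaks, or 14.3%, against 8.35% of AluY-centred, 19.6% of AluJ-centred and 27.1% of the other intronic and intergenic peaks. The longest, 34989 bp, lay at LINC00963, a long non-coding RNA gene, in an AluSx1 copy (chromosome 9, 132236744 to 132271731). Next came 25167 bp at ID1, an inhibitor of helix-loop-helix factors, 21578 bp named for IRF2BPL and 19845 bp at ESPNP, a pseudogene of espin. RPL8, a ribosomal protein gene, had 16812 bp, NTMT1, an N-terminal methyltransferase, 15448 bp, and TRNP1, a nuclear regulator of neural progenitors, 14570 bp.

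SPIRE2, an actin nucleator, had 14491 bp, SFN, the 14-3-3 sigma gene, 14239 bp, and LOC401177 had 12981 bp. The peaks at LINC00963, ID1, RPL8, NTMT1, TRNP1 and SFN spanned the named start. The IRF2BPL peak was centred at 73261 bp and the LOC401177 peak at -136597 bp from the start, far outside either gene's start region. ESPNP resembles its parent gene closely, so its reads can belong to either.

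Among the longest peaks of other larger subfamilies, the one in AluSq2 was 11570 bp long, named for SEPT9, a septin gene, and centred at -46396 bp. The longest peak was 9298 bp for AluSz6 at CCDC57, 8690 bp for AluSc8 at SBNO2 and 7772 bp for AluSg at PBX4, a homeobox gene. AluSc had 12763 bp at the pseudogene LOC653786, AluSg4 4723 bp at UBXN1 and AluSg7 4690 bp at RAI1. The shortest AluS-centred peaks were 395 bp at C2orf61, 403 bp at LINC00615 and 413 bp at HS3ST1, a heparan sulfate sulfotransferase gene.

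AluS-centred peaks mostly lay away from gene starts. Their median distance from the TSS of the named gene was 28589 bp (interval 27813 to 29399), against 38200 bp for AluY-centred and 23717 bp for AluJ-centred peaks. Within 1 kb lay 43 (0.401%), within 10 kb 2148 (20.1%, interval 19.3 to 20.8), within 50 kb 67.1%, and beyond 100 kb 1776 (16.6%). The share within 10 kb was 2.32 points above that of AluY-centred peaks (17.7%, interval 0.795 to 3.79) and below that of AluJ-centred peaks (23.9%; AluS minus AluJ -3.85 points, -5.72 to -2.06). Among peaks of at least 1350 bp both differences had the opposite sign, with intervals that included 0: AluS minus AluY was -3.15 points (-7.31 to 0.893) and AluS minus AluJ 0.674 points (-2.80 to 4.05). The AluS minus AluY interval also included 0 among shorter peaks (1.39 points, -0.133 to 2.85) and with protein-coding named genes (1.66 points, -0.120 to 3.37).

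Against the other intronic and intergenic peaks, of which 28.2% lay within 10 kb, the AluS share was lower (AluS minus other -8.16 points, -9.09 to -7.22). Among those others the share was 35.6% for peaks with no repeat. It was 18.5% for LINE-centred and 18.2% for LTR-centred peaks, both below the AluS share. Within classes of like length the gap between AluS-centred and all other intronic and intergenic peaks was smaller. The AluS and other shares were 10.3% and 12.3% below 600 bp, 12.3% and 11.6% at 600 to 699 bp, and 14.7% and 16.2% at 700 to 999 bp. They were 23.0% and 24.3% at 1000 to 1499 bp, 30.9% and 35.6% at 1500 to 2499 bp, 42.6% and 46.4% at 2500 to 4999 bp, and 47.3% and 52.0% at 5000 bp or more. The interval of the difference left out 0 in 1 of the 7 classes, 1500 to 2499 bp, where AluS minus other was -4.62 points (-7.15 to -2.01).

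**Figure D4:**
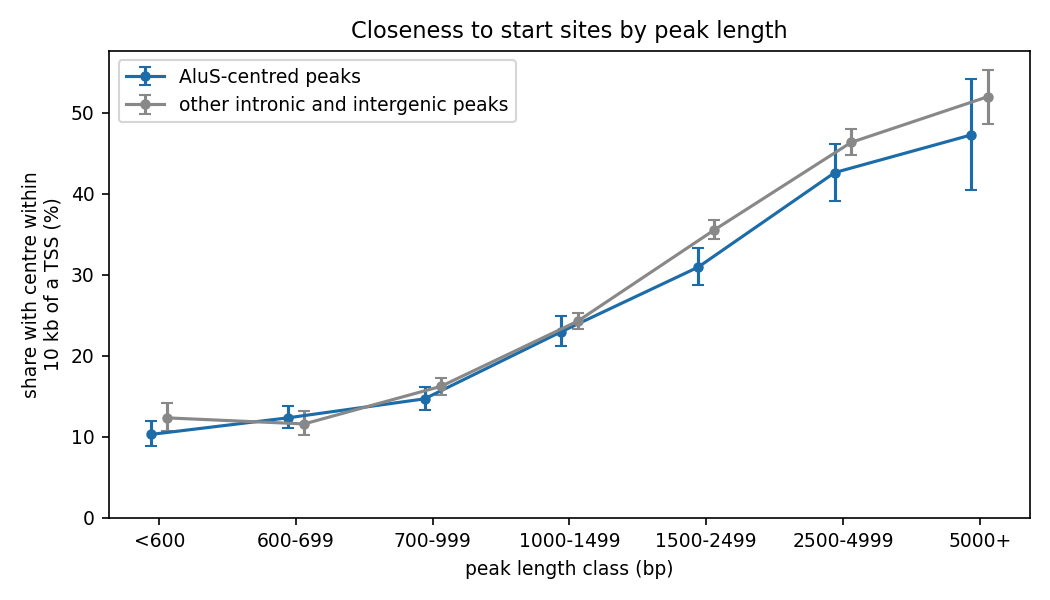
Share of peaks centred no more than 10 kb from the named TSS (vertical axis, %, with 95% Wilson intervals) for AluS-centred peaks and for other intronic and intergenic peaks in 7 classes of peak length (horizontal axis, bp). The lowest and highest classes stand at 10.3% and 47.3% for AluS-centred peaks and at 11.6% and 52.0% for the others.

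The intronic share of AluS-centred peaks showed no steady trend below 2500 bp: 57.8% below 600 bp, 60.4% at 600 to 699 bp, 61.3% at 700 to 999 bp, 62.4% at 1000 to 1499 bp and 57.3% at 1500 to 2499 bp. It was lower above that, at 47.5% (interval 44.0 to 51.1) at 2500 to 4999 bp and 45.3% (38.6 to 52.2) at 5000 bp or more. Within genes, 25.8% of intronic AluS-centred peaks lay in the first intron (1630 of 6315). The share was 24.4% for AluY-centred, 28.1% for AluJ-centred and 36.8% for the other intronic peaks. The AluS minus other difference was -11.0 points (-12.3 to -9.66). Both the AluS minus AluY interval (-0.908 to 3.63) and the AluS minus AluJ interval (-4.81 to 0.140) included 0. Of intronic peaks with no repeat 43.8% lay in a first intron, and of LINE-centred ones 30.4%. First-intron shares were not compared within classes of like length. Downstream of the named start lay 60.1% of AluS-centred peaks and 59.8% of the other intronic and intergenic peaks, a difference of 0.228 points with an interval of -0.877 to 1.33.

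AluS-centred peaks had close neighbours slightly less often than the other intronic and intergenic peaks. Another peak lay within 10 kb of 47.5% of them, against 37.7% for AluY-centred, 54.4% for AluJ-centred and 49.5% for the other intronic and intergenic peaks. AluS minus other was -1.92 points (-3.05 to -0.799). Among those others the share was 54.0% for peaks with no repeat, 41.7% for LINE-centred and 41.9% for LTR-centred peaks. Among AluS-centred peaks this share rose with length, from 32.3% below 600 bp to 86.7% at 5000 bp or more. AluS-centred and other peaks were not compared within classes of like length, so the sign of this difference holds only for unmatched lengths. The nearest peak was itself AluS-centred for 29.1% of AluS-centred peaks, 28.5% of AluY-centred, 28.1% of AluJ-centred and 22.4% of the other intronic and intergenic peaks. The AluS minus AluY difference in this was 0.634 points (-1.13 to 2.36) and the AluS minus other difference 6.69 points (5.69 to 7.69). Reading along each chromosome, 5110 AluS-centred peaks (47.7%) stood in 2089 runs of 2 or more without a different peak between them. Peaks that make up 23.9% of a list will often stand next to one another, and the run share was not set against a reference.

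The longest runs held 7 peaks, and there were 5 of them. One spanned 64.6 kb at VPS45, a vesicle-sorting gene, and PLEKHO1 on chromosome 1, with peaks of 633 to 1615 bp. The others lay at RIF1 and NEB on chromosome 2, at SVEP1, MUSK and TXNDC8 on chromosome 9, at RTTN and CD226 on chromosome 18, and at LINC01098 and LINC01099 on chromosome 4, where 1283 kb were spanned. A run of 6 within PCDH7 was the tightest of the 16 runs of 6, at 10.35 kb (chromosome 4, 30773357 to 30783707). Its peaks were 687 to 1079 bp long and lay in AluSx1, AluSz6, AluSg, AluSx1, AluSx and AluSp copies, so different subfamilies stood side by side.

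PCDH7, a protocadherin gene, had by far the most AluS-centred peaks, 35 of its 87. Of these 28 were intronic, none was closer than 31859 bp to the start, and the shortest measured 514 bp, the median one 703 bp and the longest 1452 bp. Next came SERF1A (12 of 18 peaks) and HAS2, a hyaluronan synthase gene (12 of 19), whose AluS-centred peaks were all intergenic and 587 to 904 bp long. BCAS3 had 10 of 19, all intronic, MMP16, a membrane-bound matrix metalloproteinase gene, 10 of 20, the non-coding CASC17 10 of 14, and FSTL5 10 of 22 with a median of 556.5 bp.

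SMURF2, a ubiquitin ligase gene of TGF-beta signalling, had 9 AluS-centred peaks among 15, and they were longer, with a median of 2242 bp and a range of 605 to 7934 bp. LOC654342 had 10 of 23 and RGPD5 had 9 of 18. SERF1A, LOC654342 and RGPD5 belong to duplicated segments with near-identical copies, so the place of their reads is uncertain. By the gene whose intron holds the peak, PCDH7 led with 28 of its 59 intronic peaks. STAG1, a cohesin subunit gene (13 of 22), VPS13B (13 of 24), BCAS3 (11 of 24) and NBPF25P (11 of 21) followed, the last again a member of a duplicated family. VMP1, a membrane protein of autophagy, held 9 of 21 with a median of 1746 bp. Of all intronic peaks 31.0% were AluS-centred, and these genes were picked for their AluS counts. The host gene was the named gene for 4280 of 6057 intronic AluS-centred peaks (70.7%).

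In all, 6836 of the 17266 genes named in the list (39.6%) were named for an AluS-centred peak, 4555 of them for 1 and 159 for 5 or more. Protein-coding genes were named for 80.3% of AluS-centred peaks and 79.9% of all peaks. Symbols beginning with ZNF, mostly zinc finger genes, were named for 142 (1.33%, against 1.56% of all peaks). For MIR symbols, mostly microRNA genes, the count was 464 (4.33%, against 4.36%), and for LINC 313 (2.92%, against 2.74%). For LOC it was 554 (5.17%, against 5.38%) and for SNOR 38 (0.355%, against 0.393%).

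APC itself had 3 peaks, all intronic and all centred in Alu elements, 2 of them AluS. An AluSx-centred peak of 598 bp lay in intron 4 of 15 (chromosome 5, 112104593 to 112105189), 31335 bp downstream of the start. An AluSx1-centred peak of 770 bp lay in intron 7 of 15 (112130551 to 112131319), 57379 bp downstream. The third was centred in an AluJo copy and measured 530 bp.

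WNT pathway genes were followed by role in lists of 128 genes, of which 113 were named for any peak and 48 for an AluS-centred one. That is 42.5% of the 113, against 39.6% of all genes named in the list. A gene with more peaks has more openings to be named for an AluS-centred one. The 113 genes had 397 peaks and all 17266 genes 44771. The gene shares here and by role below were not adjusted for that. Of the 397 peaks named for the 128 genes, 75 were AluS-centred (18.9%, interval 15.3 to 23.0), against 23.9% of all peaks. Of the 75, 5 lay within 10 kb of the start, where 20.1% of all AluS-centred peaks lay. None of the 75 spanned the start, against 1.37% of all AluS-centred peaks, so a count of 0 in 75 is near that share.

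Among 18 WNT ligands 15 genes had a peak and 2 of these (13.3%) an AluS-centred one, with 2 of 42 peaks AluS-centred (4.76%, interval 1.32 to 15.8): WNT2B (986 bp, 15490 bp downstream) and WNT7B (1342 bp, 95104 bp downstream). Of 36 receptors and their modulators 29 had a peak and 18 of these (62.1%) an AluS-centred one, with 25 of 97 peaks (25.8%). The closest were at KREMEN2, a receptor for DKK inhibitors (3178 bp, centred at -6117 bp), ZNRF3, a ligase that removes WNT receptors (1275 bp, -6649 bp), ROR1, a WNT5A receptor (1000 bp, -7163 bp), and FZD6, a frizzled receptor (682 bp, -11409 bp). ROR2, a relative of ROR1, had 4. The other receptor-side genes named were the frizzled receptors FZD5, FZD7 and FZD9, the co-receptors LRP6 and RYK, and the ligase RNF43. LGR6, the R-spondins RSPO2 and RSPO3 that it can bind, and the secreted modulators DKK1, DKK2, SFRP1 and SFRP2 were also named. Some of these peaks lay far from the named gene or inside another. A DKK2 peak was centred at -331607 bp, the SFRP2 peak at -204156 bp, and an FZD9 peak lay in an intron of BAZ1B.

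In the destruction complex and its regulators all 23 genes had a peak, 11 of them (47.8%) an AluS-centred one, and 20 of 70 peaks were AluS-centred (28.6%). AXIN2, the feedback scaffold, had 4, the closest 1516 bp long and centred at -13183 bp. The kinase gene CSNK1A1 had a 1499-bp peak 18488 bp downstream, CSNK1G1, another casein kinase gene, one of 703 bp 23041 bp downstream, and TNKS2, a tankyrase that turns over axin, one of 693 bp 24354 bp downstream. GSK3B had 3, and CTNNB1, the β-catenin gene, had 3, none closer than 90469 bp. The closest CTNNB1 peak lay in an intron of ULK4, and the CSNK1E peak lay in an intron of TPTEP2. CSNK1E, TNKS, the phosphatase subunit gene PPP2CA and BTRC, which encodes the ubiquitin ligase adaptor for β-catenin, were also named.

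Of 21 nuclear factors 20 had a peak and 8 of these (40.0%) an AluS-centred one, and 16 of 94 peaks were AluS-centred (17.0%). The closest were at CTNNBIP1, an inhibitor of β-catenin and TCF contact (1101 bp, -5689 bp), TCF7L2, a TCF factor that β-catenin binds (2067 bp, 10828 bp downstream, 1 of 4), CTBP2, a co-repressor (3074 bp, -12129 bp), and SOX17 (868 bp, -13061 bp). TCF7, TCF7L1, the co-repressor TLE1 and SOX9 completed the nuclear factors named. Of 30 WNT targets 26 had a peak and 9 of these (34.6%) an AluS-centred one, and 12 of 94 peaks were AluS-centred (12.8%, interval 7.46 to 21.0). BIRC5, the survivin gene, had the longest, 7619 bp in an AluSz6 copy centred 5242 bp downstream and not reaching the start. TIAM1, a RAC exchange factor, had 1085 bp at 10449 bp, EPHA2, an ephrin receptor, 1631 bp at 19183 bp, and MYC 3595 bp at 28567 bp downstream. EPHB3, PPARD, FGF18, FGF20 and TNFRSF19 were the remaining targets named.

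The intervals for ligands and for targets lie below the 23.9% of all peaks, those for receptors and the destruction complex include it, and the interval for nuclear factors includes it as well. Promoter peaks cannot be AluS-centred, so a role with many promoter peaks has fewer peaks that could carry the label. Promoter peaks were not counted by role, and whether they bear on these shares was not tested.

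Chromosomes differed more in the length of AluS-centred peaks than in their share. Over 22 autosomes AluS held from 23.9% of intronic and intergenic peaks on chromosome 22 to 33.9% on chromosome 4 (interval 31.8 to 36.0), and 21.7% on X. The number per Mb ran from 2.13 on chromosome 18 to 7.73 on chromosome 17, with 6.60 on chromosome 19 and 0.516 on X. The density of all peaks was not set beside these numbers. Of all peaks, AluS-centred ones made up 23.5% on chromosome 18, 23.2% on 17, 19.4% on 19 and 14.1% on X. The median length ran from 667 bp on chromosome 4 (656 to 691) to 1941 bp on chromosome 19 (1811 to 2087). Chromosomes 22 (1528 bp), 17 (1515 bp) and 16 (1480 bp) came next to chromosome 19.

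The other intronic and intergenic peaks varied over the same chromosomes, from a median of 995 bp on chromosome 4 to 2176.5 bp on chromosome 17 and 2115 bp on chromosome 19. The AluS median was below theirs on 22 of 22 autosomes. Below 700 bp were 54.7% of AluS-centred peaks on chromosome 4 (interval 50.9 to 58.4) and 7.44% on chromosome 19 (5.23 to 10.5), against 22.9% and 0.900% of the other peaks on those chromosomes.

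**Figure D5:**
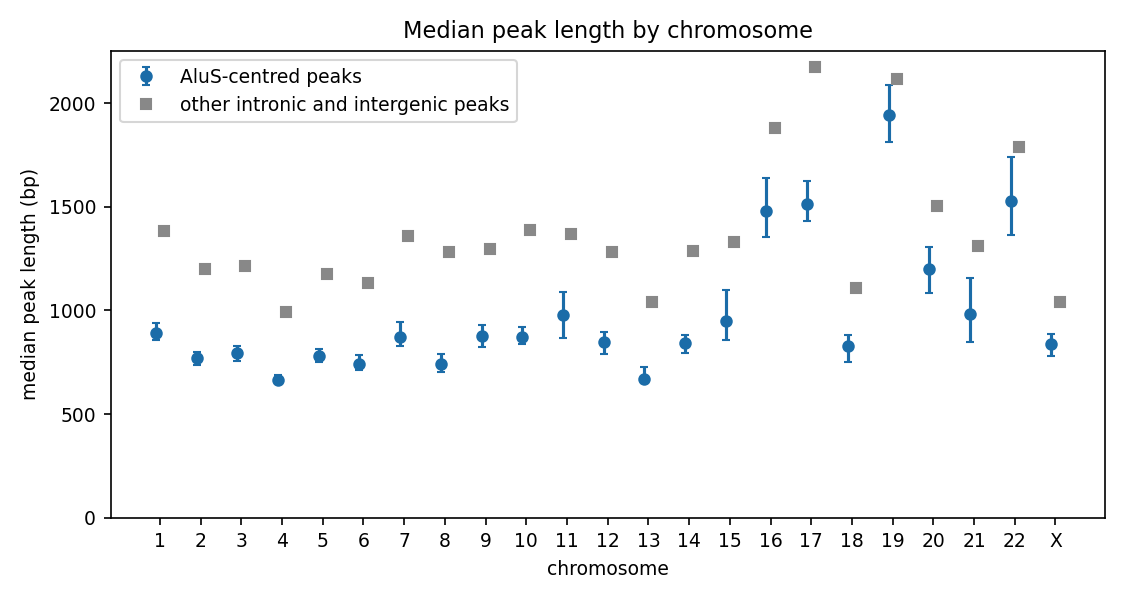
Median length (vertical axis, bp) of AluS-centred peaks, with 95% order-statistic intervals, and of the other intronic and intergenic peaks on each chromosome except Y (horizontal axis). AluS medians run from 667 bp on chromosome 4 to 1941 bp on chromosome 19 and lie below the others on 22 of 22 autosomes.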

How the data were processed

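HCT-116 chromatin was crosslinked, sonicated, digested with micrococcal nuclease and immunoprecipitated with anti-APC antibody, per the labels' protocols. MACS2 and hg19 are named in the submitters' processing notes. The sources used here do not give the aligner, versions, peak threshold, use of the input, annotation tool and handling of reads that match more than 1 place. The deposited score equals end minus start plus 2 bp in all 44771 rows, so it was used as a peak length. Start, end and distance to the TSS are the deposited coordinates in bp. Among 27491 neighbouring pairs named for the same gene, distances differed as the peak centres do, within 1 bp, in 93.3%. Read depth is unknown, and no peaks overlapped.

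Members were split by subfamily and by intron or intergenic label. Shares have 95% Wilson intervals, differences of shares Newcombe hybrid score intervals, and medians order-statistic intervals, computed with Python 3.11.15, numpy 2.4.6, pandas 2.3.3 and scipy 1.17.1 and checked on simulated data. Figures used matplotlib 3.10.9. A peak was taken to span a TSS where its distance was under 0.5 of its length. A run was broken by any other peak. RefSeq tables (GRCh38.p14) gave names, gene types and promoters. They matched 6557 of 6836 gene names (95.9%) and the host transcripts of 6214 of 6315 intronic peaks (98.4%).

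Genes were named by rule: the 10 longest AluS-centred peaks, the 10 nearest a TSS, the 10 genes with most, WNT list members (the closest 4 of each role in full), APC, the longest peak of each subfamily of 100 or more, and symbol families. A gene that the rule takes is not reported here. Runs of 7, the run at PCDH7, the shortest peaks, the leading host genes, VMP1 and genes with several WNT list peaks were added after their values were seen. Members and lists were chosen with earlier results of these data known. Alternatives were length, chromosome, gene type, location, neighbour and distance limits and grouping of subfamilies.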

Additional observations from a re-analysis of the deposited data

How the results depend on the processing

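No paired analysis was possible because each group is 1 library, and leaving out a replicate was not run for the same reason. Of 95 values recomputed in other ways 51 stayed inside the 95% interval of the reported value, 42 moved out of it (for WNT gene counts, by over 1.5 times) and 2 changed sign. Chromosomes X and Y left out moved none of the values. Some outcomes were fixed in advance, so these counts do not measure stability. All Alu-centred peaks are intronic or intergenic, so keeping only such peaks could not change most values. Leaving out X and Y could not change the chromosome 19 share. A split by length moves the median length by construction, and other distance limits redefine the shares they apply to.

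Peak length moved most values. For peaks of at least 1350 bp and for shorter ones, the AluS share of all peaks was 13.5% and 34.4%, the intron share 54.5% and 60.7%, the median length 2024 and 712 bp, the share within 10 kb of the TSS 34.0% and 14.6%, the downstream share 56.5% and 61.4%, the first-intron share 33.6% and 23.1%, the share with another peak within 10 kb 66.8% and 40.0%, the AluSx share 21.4% and 17.5%, and the chromosome 19 AluS share 17.1% and 30.0%, against 19.4% of all its peaks. For the longer peaks the AluS share of Alu-centred peaks was 65.3%, AluS minus AluY intron share was 1.25 points, and the differences within 10 kb of the TSS changed sign, to 0.674 points (AluS minus AluJ) and -3.15 points (AluS minus AluY), both with intervals that include 0. WNT list genes numbered 16 for the longer peaks and 5 within 10 kb.

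Among intronic and intergenic peaks the AluS share was 29.3%, and 26.0% on chromosome 19. With protein-coding named genes the intron share was 62.1%, the median 886 bp, the downstream share 61.2%, the first-intron share 27.1% and the neighbour share 48.8%. Without peaks within 500 bp of another the AluS share was 24.3%, the median 851 bp, the share within 10 kb of the TSS 18.9% and the neighbour share 43.8%. A TSS limit of 1 kb gave 0.401%, with differences of -0.234 (AluJ) and 0.0757 points (AluY); 50 kb gave 67.1%, -7.20 and 9.82 points. Neighbour limits of 1 and 100 kb gave 10.3% and 94.2%. Grouping by letter put the AluSx group at 39.5%.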
